A study of Mus musculus with 10 samples.

Results

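The cells described here are a small myeloid population of the injured mouse kidney that held RNA for the C-type lectins Cd209a and Clec10a or the chemokine Ccl17. They were chosen from single-cell 3′ count tables by 2 conditions on each cell barcode. Cd209a, Ccl17 and Clec10a together had at least 3 UMIs (unique molecular identifiers, each standing for 1 captured RNA molecule), and C1qa, C1qb and C1qc, the complement subunits made by resident macrophages, together had fewer than 8. Both conditions were met by 130 of 3063 barcodes of the injured kidney and by 3 of 1313 barcodes of the uninjured kidney. The 6 genes of these conditions are therefore described and not tested, and any gene compared between barcodes sorted by them is described in the same way.

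The series examined kidneys of 8-week-old mice after ischaemia-reperfusion injury (IRI), in which the artery of 1 kidney was tied for 15 min and the kidney was taken 2 weeks later. The 2 single-cell tables come from C57/BL6 kidneys, 1 injured and 1 uninjured, which were digested on ice, sorted for live cells with DAPI and prepared with the 10x 3′ V2 chemistry. Bulk RNA-seq of whole kidneys covers injured kidneys and the kidneys on the other side (contralateral) in 3 arms of 4 numbered libraries each. The first arm is Pax8creERT2;Ihhfl/fl mice given tamoxifen, called here the arm labelled Ihh-deleted, the second C57/BL6 mice given tamoxifen, and the third Pax8creERT2;Ihhfl/fl mice labelled as not given tamoxifen, called here the vehicle arm. Ihh encodes Indian hedgehog, a secreted ligand. CreERT2 acts only with tamoxifen and Pax8 drives it in tubule epithelium, so the design deletes Ihh in epithelium and not in the cells described here. No arm carried the transgene and tamoxifen with Ihh intact.

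Dendritic cells take up antigen, load its peptides onto MHC class II and show them to CD4 T cells. Conventional dendritic cells depend on the receptor Flt3 and fall into type 1 cells, marked by Xcr1 and Clec9a, and type 2 cells, which use Irf4 and in many tissues carry the lectins Cd209a, Clec10a and Mgl2. Macrophages of the kidney also carry MHC class II, and are told from dendritic cells by Adgre1, Csf1r, complement C1q and lipid-handling genes such as Apoe. Ccl17 is a ligand of Ccr4, a receptor of regulatory and type 2 helper T cells.

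Promoter sequences are given for the genes on which the description turns, as windows of 250 bases before to 50 bases after the start of transcription, 5′ to 3′ on the gene's own strand, from RefSeq on GRCm38.p6. Of 22 genes looked up, 17 had an entry. A set of 3 motifs was looked for on both strands, and capitals mark matches of the first or the second. The first is GATTGG, the Y box of MHC class II promoters, which read on the other strand is the CCAAT box. The second is TTCNNNNGAA, a palindrome that STAT6 can bind, whose last 4 letters can overlap the GGAA core of ETS factors. The third is GAGGAAGT, a sequence of the kind that the ETS factor PU.1 binds. The first 4 windows belong to MHC class II genes on chromosome 17. H2-Aa encodes a chain of the peptide-presenting molecule (chr17:34287774-34288073, minus strand, Y box at -49 from the start). H2-DMb1 (chr17:34152941-34153240, plus strand, Y box at -62) and its neighbour and near copy H2-DMb2 (chr17:34144999-34145298, plus strand, Y box at -91) encode chains of the peptide-loading catalyst. H2-Oa encodes a chain of the inhibitor of that catalyst (chr17:34092129-34092428, plus strand, Y box at -44). The other windows are those of Ccl17 (chr8:94810203-94810502, plus strand, palindrome at -154) and Retnla (chr16:48842359-48842658, plus strand, palindrome at -145), which encodes a secreted protein of alternatively activated myeloid cells.
H2-Aa: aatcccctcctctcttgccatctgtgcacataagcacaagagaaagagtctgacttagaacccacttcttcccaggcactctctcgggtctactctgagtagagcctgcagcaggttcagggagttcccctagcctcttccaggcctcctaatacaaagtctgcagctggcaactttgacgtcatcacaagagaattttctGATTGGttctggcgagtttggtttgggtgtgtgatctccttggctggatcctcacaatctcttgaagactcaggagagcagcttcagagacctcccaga
H2-DMb1: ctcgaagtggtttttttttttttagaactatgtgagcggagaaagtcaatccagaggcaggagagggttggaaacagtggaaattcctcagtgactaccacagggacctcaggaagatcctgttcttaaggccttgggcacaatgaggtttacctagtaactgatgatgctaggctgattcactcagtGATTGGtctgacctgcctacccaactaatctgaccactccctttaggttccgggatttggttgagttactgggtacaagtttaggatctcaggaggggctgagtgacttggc
H2-DMb2: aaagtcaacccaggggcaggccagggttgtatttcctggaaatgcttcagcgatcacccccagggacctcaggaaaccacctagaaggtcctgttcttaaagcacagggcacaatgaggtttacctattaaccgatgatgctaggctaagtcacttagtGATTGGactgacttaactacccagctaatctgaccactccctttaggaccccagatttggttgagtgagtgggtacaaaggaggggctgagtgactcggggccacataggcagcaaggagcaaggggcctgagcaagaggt
H2-Oa: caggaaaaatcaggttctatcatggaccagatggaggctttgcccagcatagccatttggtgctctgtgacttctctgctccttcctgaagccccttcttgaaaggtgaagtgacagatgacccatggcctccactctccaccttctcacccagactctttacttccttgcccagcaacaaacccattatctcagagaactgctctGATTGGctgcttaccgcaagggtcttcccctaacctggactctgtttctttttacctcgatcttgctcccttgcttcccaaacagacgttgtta
Ccl17: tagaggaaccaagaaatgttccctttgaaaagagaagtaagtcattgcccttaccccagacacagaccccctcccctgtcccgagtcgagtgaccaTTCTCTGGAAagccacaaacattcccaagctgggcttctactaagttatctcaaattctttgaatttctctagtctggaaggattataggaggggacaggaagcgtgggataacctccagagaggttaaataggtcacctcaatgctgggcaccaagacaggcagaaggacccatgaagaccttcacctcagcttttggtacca
Retnla: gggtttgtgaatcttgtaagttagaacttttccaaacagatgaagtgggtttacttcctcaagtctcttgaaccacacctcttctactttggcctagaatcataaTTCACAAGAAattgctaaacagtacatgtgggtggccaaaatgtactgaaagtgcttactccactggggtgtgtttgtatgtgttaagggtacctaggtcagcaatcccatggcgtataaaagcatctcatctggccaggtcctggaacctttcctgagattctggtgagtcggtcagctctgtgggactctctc
The Y box letters stood in 8 of the 11 MHC class II and loading genes with an entry, and in 16.1% of 32851 promoter windows of the same 300 bases. The palindrome stood in 6.95% of those windows and the PU.1 letters in 3.20%. Among the genes looked up, the PU.1 letters stood in the windows of Ctss and Retnla, and in the Retnla window printed here they are left in lower case. The windows of Cd209a, Mgl2, Ccl22 and Flt3 held none of the 3 motifs. A match is only a match of letters.

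The injured table lists 15340 genes and its barcodes held 1030 to 13626 UMIs with a median of 2014. The uninjured table lists 13217 genes, with 1004 to 12962 UMIs per barcode and a median of 2391. No barcode of either table had more than 2496 genes. There is 1 library per condition, so no difference between barcodes or between the 2 tables was tested, and every interval below is a 95% exact interval that covers counting error only. The 130 barcodes held 1249 to 6663 UMIs (median 3219.5) and a median of 1233 genes. Mitochondrial RNA made up 2.51% of their UMIs at the median and ribosomal protein RNA 20.9%. They were compared mainly with the 279 C1q-high barcodes of the same table, those with at least 8 C1q UMIs, which were shallower (median 2029 UMIs, 886 genes) and held 3.21% mitochondrial and 12.0% ribosomal protein RNA. After each barcode was thinned at random to 1000 UMIs, the described cells had a median of 541 genes and the C1q-high barcodes 529. The 2 tables shared 8 barcode sequences, none of them among the described cells.

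Cd209a, a lectin that binds sugars of pathogens, was the most widely shared of the rule's genes. It was found in 114 of the 130 barcodes (87.7%), with 942 UMIs and up to 33 in 1 barcode. Clec10a, a lectin for galactose-type sugars, was found in 88 (67.7%), with 325 UMIs and at most 15 in 1 barcode. Ccl17 was found in only 36 (27.7%), with 498 UMIs, of which 173 (34.7%) lay in 1 barcode. The patterns of detection account for all 130 barcodes: 59 had Cd209a and Clec10a, 29 had Cd209a alone, 21 had all 3, 8 had Ccl17 alone, 6 had Clec10a alone, 5 had Cd209a and Ccl17, and 2 had Ccl17 and Clec10a. Of the C1q genes, 103 barcodes had no UMI, 21 had 1 and the other 6 had at most 6. Relative to the whole injured library, the 130 barcodes held 94.7% of the 995 Cd209a UMIs, 86.8% of the 574 Ccl17 UMIs and 86.2% of the 377 Clec10a UMIs. In proximal tubule barcodes, which should lack the gene, 0.912% had a Cd209a UMI at a median depth of 2190 UMIs.

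**Figure D1:**
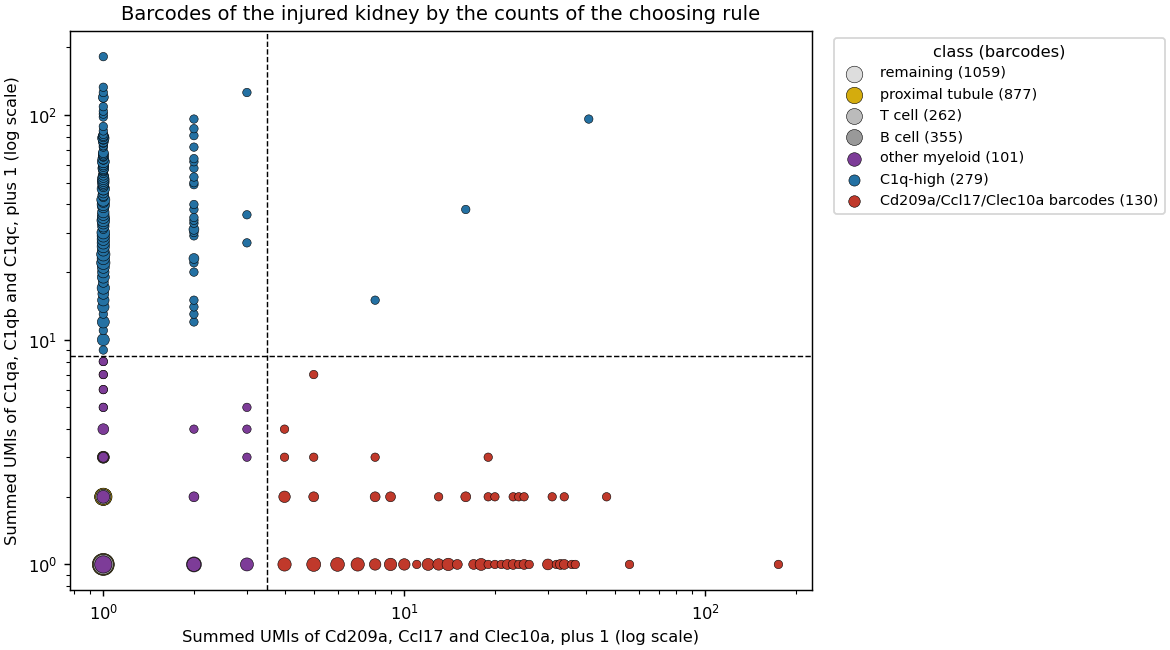
Each point is a set of barcodes of the injured table with the same counts, placed by its summed UMIs of Cd209a, Ccl17 and Clec10a plus 1 (x, log axis) and of C1qa, C1qb and C1qc plus 1 (y, log axis), with larger points for more barcodes and dashed lines at the limits of the rule. The 130 described cells lie right of and below the lines, and 3 barcodes lie above both.

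The limits cut through a thin but not empty region. Exactly 3 UMIs of the rule's genes were found in 15 members, and 17 barcodes just outside had exactly 2 with C1q under its limit. Summed over each set, Flt3, the growth factor receptor of dendritic cells, stood at 207 CPM (counts scaled to a common total in each set) among those 15 and at 85.7 CPM among those 17. It was found in 8 and 4 barcodes of these sets. Members with 4 to 10 UMIs of the rule's genes had 104 CPM of Flt3 and those above 10 had 113 CPM. The 15 thus stood above the other members too, and Flt3 shows no clear break at the limit. Klrd1 stood at 539 and 343 CPM, Napsa at 1411 and 707 CPM, and H2-Aa at 16826 and 14701 CPM. Apoe stood at 41.5 CPM inside and 214 CPM outside, found in only 2 and 4 barcodes. The 52 barcodes with 1 such UMI had 6.87 CPM of Flt3 and 5377 CPM of H2-Aa. Above both limits lay 3 barcodes, with 14 to 95 C1q UMIs.

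Retnla, given as a marker of this population along with the rule's genes, was not found in it. All 130 barcodes had 0 UMIs, which allows a share of up to 2.80% of barcodes with a UMI. Retnla lay in 12 of the 279 C1q-high barcodes, with 396 of the library's 462 UMIs, 176 of them in 1 barcode and 71 in the next. The 101 other myeloid barcodes, those with neither a member's counts nor high C1q, held 55 Retnla UMIs in 4 barcodes. Of the 12 C1q-high barcodes with Retnla, 9 also had Mgl2, a lectin closely related to Clec10a. The data thus go against Retnla as a marker here, whereas genes that define dendritic cells were found in part of the population. Flt3 or Zbtb46, a transcription factor of conventional dendritic cells, was found in 45 of the 130 barcodes and in 1 of the 279 C1q-high barcodes. The share was the same in the other myeloid barcodes, 35 of 101 (34.7%) against 34.6%. These 2 genes therefore did not set the described cells apart from that class.

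Against the C1q-high barcodes, the described cells had more RNA for Flt3, Klrd1, Napsa, Lsp1 and 3 genes of MHC class II loading, H2-Oa, H2-Ob and H2-DMb2. Klrd1, known as a subunit of an inhibitory receptor of natural killer cells, had 219 UMIs in 86 barcodes (506 CPM) against 1 UMI in the C1q-high barcodes, a ratio of 344 with an interval of 61.1 to 13659. Napsa, an aspartic protease, stood at 1216 against 69.1 CPM, 17.6-fold higher (13.04 to 24.24), and was found in 119 barcodes. Cbfa2t3, a transcriptional corepressor, stood at 284 against 16.2 CPM, 17.6-fold higher (9.49 to 36.1). Itgb7, an integrin chain of mucosal leukocytes, stood at 287 against 16.2 CPM, 17.7-fold higher (9.57 to 36.4). These genes were spread over the population, with Cbfa2t3 in 79 and Itgb7 in 73 of the 130 barcodes. Flt3 itself had 52 UMIs in 40 barcodes against 1 UMI, a ratio of 81.7 with an interval of 14.04 to 3290.

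Several cytoskeletal and calcium-binding genes were higher too. Lsp1, a leukocyte actin-binding protein, stood at 1544 against 168 CPM, 9.21-fold higher (7.54 to 11.3), and Cnn2, a calponin, was 4.72-fold higher. S100a4 was 8.40-fold, Anxa2 5.55-fold and S100a6 4.92-fold higher, all 3 being calcium-dependent proteins. Mcemp1, a membrane protein of myeloid cells, was 9.09-fold higher, Ltb, which encodes lymphotoxin beta, 7.78-fold, Plac8 4.63-fold and Ms4a4c 4.48-fold. Plac8 was uneven, with its 112 UMIs in 34 barcodes. Over all genes with at least 20 UMIs in the 2 classes together, 388 of 5386 (7.20%) were at least 2-fold higher in the described cells and 661 (12.3%) at least 2-fold lower. The median gene did not differ (log2 ratio 0.00).

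**Figure D2:**
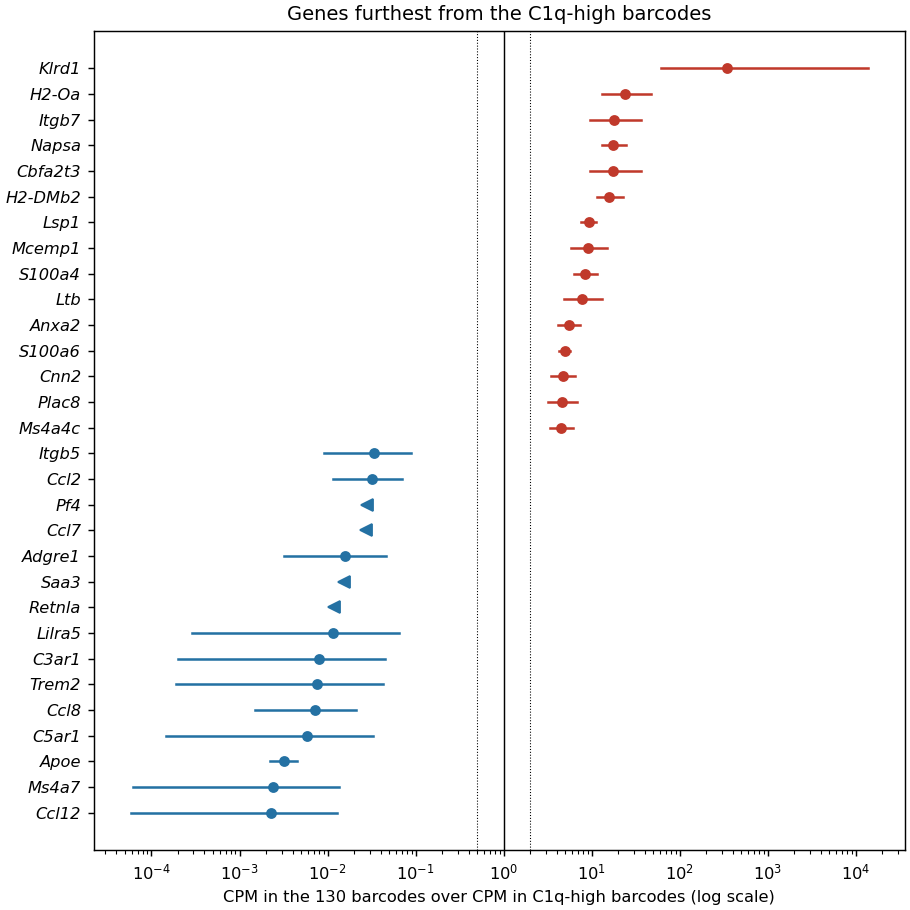
Ratio of CPM in the 130 described cells to CPM in the 279 C1q-high barcodes (x, log axis) for the 15 genes with the highest and the 15 with the lowest ratio by a fixed rule (y), as points with 95% counting intervals. Dotted lines mark 2-fold and triangles mark upper bounds for genes with 0 UMIs in the described cells; Klrd1 is highest at 344 and Ms4a7 and Ccl12 are lowest among the genes with a UMI.

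On a list of type 2 dendritic cell genes, 13 of the 17 tested were at least 2-fold higher than in the C1q-high barcodes. None was 2-fold lower (median log2 ratio 3.59), where 7.20% of all genes were higher and 12.3% lower. But 2 of those 13 are genes of the rule, so their higher level was set by the choice of barcodes. Both also enter the median. The list, like the others used here, was chosen with earlier results of these data known. Its count therefore only describes these barcodes. Besides the genes above, Cd7, an immunoglobulin-family receptor, had 36 UMIs against 0, at least 18.9-fold higher against a floor of 3 UMIs. Klf4, a transcription factor needed by part of the type 2 cells, was 4.49-fold higher (139 against 30.9 CPM). Tnip3, an inhibitor of NF-kB signalling, was 2.72-fold higher. The transcription factors Irf4 (12 UMIs in 11 barcodes) and Zbtb46 (10 UMIs in 9) were too sparse for the minimum of 20. Mgl2 did not separate the classes, at 733 against 668 CPM, a ratio of 1.10 (0.95 to 1.27), and was found in 57 of the described cells and 127 of the C1q-high barcodes. Reads of Mgl2 and Clec10a, and of Cd209a and its paralogs, may be split between near copies, so the level of each alone is uncertain. Of the paralogs, Cd209d had 11 UMIs in the library, Cd209c 3 and Cd209b 4, and all but 1 Cd209b UMI lay in the described cells.

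The MHC class II genes did not move as one. The abundant presenting chains stood at similar levels in both classes, as seen for H2-Aa at 16226 against 14905 CPM (ratio 1.09) and H2-Ab1 at 20003 against 17055 CPM (ratio 1.17). The invariant chain Cd74, at 61060 against 59196 CPM (ratio 1.03), and H2-Eb1 (ratio 0.97) followed. The genes of the loading inhibitor were far higher in the described cells: H2-Oa at 418 against 17.6 CPM, a ratio of 23.7 (13.3 to 46.7), and H2-Ob at 90.1 against 10.3 CPM, a ratio of 8.76 (3.87 to 23.2). H2-DMb2 was 15.9-fold higher (11.5 to 22.6), whereas its near copy H2-DMb1, whose promoter is printed above beside it, had a ratio of 0.89. How reads were divided between these copies is uncertain. Of the lysosomal enzymes that process antigen, Ifi30, a thiol reductase, was 2.52-fold higher. Cathepsin S (Ctss) was 2.14-fold lower (1.98 to 2.32) and legumain (Lgmn) 13.6-fold lower (9.59 to 19.9). Over the 13 tested genes of this list 4 were higher and 2 lower, with a median log2 ratio of 0.23, beside 7.20% higher and 12.3% lower among all genes, so the share lower was near that of all genes. High H2-Oa and H2-DMb2 were shared with B cells: after thinning to 1000 UMIs, H2-DMb2 was found in 41.5% of the described cells, 4.66% of the C1q-high barcodes and 64.2% of the B cell barcodes, and H2-Oa in 34.6%, 2.87% and 32.7%.

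All 19 tested genes of a macrophage list were at least 2-fold lower in the described cells than in the C1q-high barcodes, with a median log2 ratio of -3.56, where 12.3% of all genes were lower. The C1q-high barcodes were themselves chosen by macrophage genes. Apoe, the lipid carrier, stood at 78.6 against 24245 CPM, 309-fold lower (221 to 446). Ms4a7, a membrane protein of macrophages, had 1 UMI and a 413-fold lower level with an interval of 73.8 to 16332. Adgre1, which encodes the F4/80 antigen, stood at 6.93 against 443 CPM, 63.8-fold lower (21.6 to 311), and was found in 3 described cells and 160 C1q-high barcodes. Csf1r, the receptor that macrophages need to live, was 6.59-fold lower (4.78 to 9.32) and was found in 27 of the described cells. Mrc1, a mannose receptor, was 4.04-fold lower. Cx3cr1, a chemokine receptor of macrophages, was 11.80-fold lower. Trem2, C3ar1 and C5ar1, receptors for lipids and complement fragments, had 1 UMI each against 304, 288 and 400 CPM.

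The described cells held less chemokine RNA than the C1q-high barcodes. Of 15 tested chemokine genes, 10 were at least 2-fold lower and 1, Ccl17 of the rule, higher, beside 12.3% lower and 7.20% higher among all genes. The monocyte attractants Ccl12, at 2.31 against 1007 CPM, and Ccl8, at 6.93 against 963 CPM, were nearly absent, as were Ccl7 and Pf4 with 0 UMIs each, at least 36.7-fold and 35.8-fold lower. Ccl2 was 31.6-fold lower (14.4 to 86.8). Cxcl16 stood at 187 against 673 CPM, Ccl4 at 164 against 572 CPM and Ccl3 at 64.7 against 326 CPM. Ccl9 kept a similar level, at 559 against 547 CPM. Short of the 2-fold limit, Ccl6 was lower, at 573 against 763 CPM, and Ccl5 higher, at 356 against 222 CPM. Ccl22, the other ligand of Ccr4, had 12 UMIs in 7 barcodes. The interleukin Il1b stood at 314 against 269 CPM (ratio 1.17, 0.93 to 1.47), while Tnf had 3 UMIs in 3 barcodes, and Il6, Il10 and Il12b had none in the described cells. The growth factor Igf1 had 0 UMIs against 103 CPM, at least 14.8-fold lower.

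**Figure D3:**
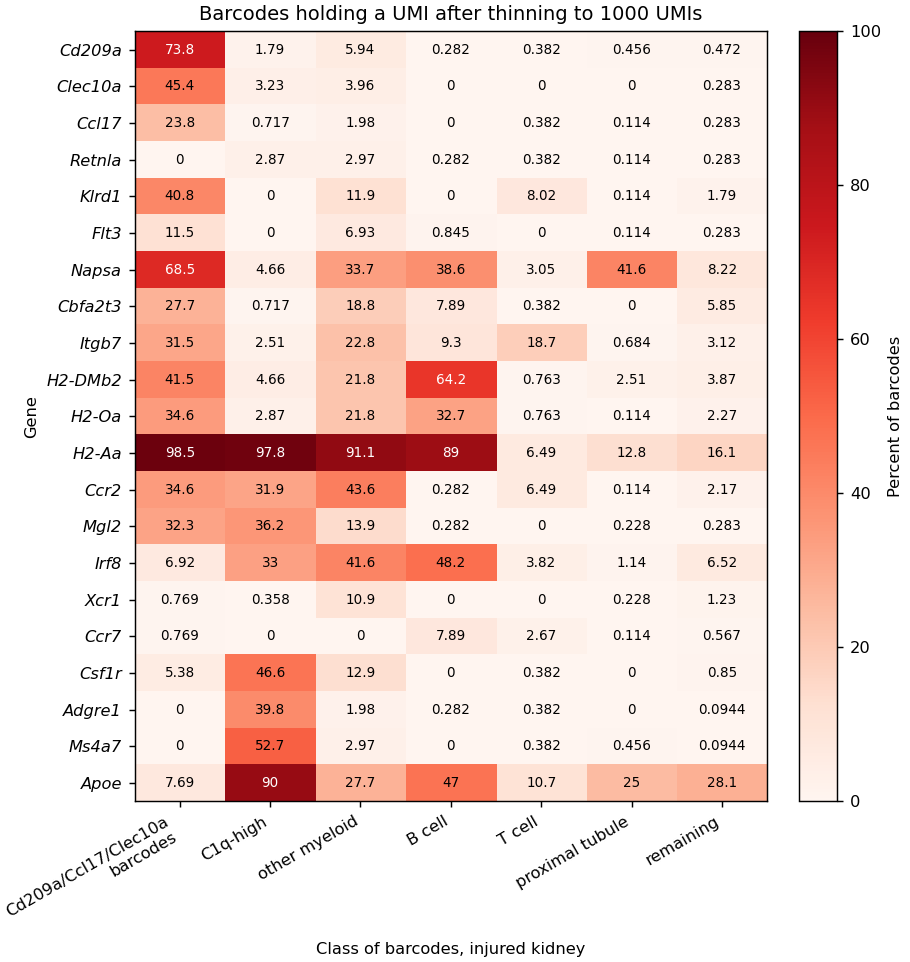
Share of barcodes (%) with at least 1 UMI of each of 21 genes (rows) in 7 classes of the injured table (columns), after every barcode was thinned to 1000 UMIs. Klrd1 was found in 40.8% of the described cells and in no C1q-high barcode, while Ms4a7 and Adgre1 were found in 52.7% and 39.8% of the C1q-high barcodes and in none of the described cells.

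Bhlhe40, a repressor of the basic helix-loop-helix family, was 5.18-fold higher (2.97 to 9.51), and Id2, which dendritic cell development needs, 3.63-fold (2.86 to 4.64). The macrophage factor Maf was 22.3-fold lower and Cebpb 6.90-fold lower. Irf8, the factor of type 1 dendritic cells and monocytes, was 3.19-fold lower (2.39 to 4.33). Spi1, which encodes the myeloid factor PU.1, stood at 693 against 488 CPM. Of 16 tested genes of the TNF and NF-kB response, 5 were higher, among them Nfkb1 at 217 against 72.1 CPM, Traf1 and Nfkb2, and 1, Nfkbiz, was lower, beside 7.20% higher and 12.3% lower among all genes. Among receptors, Ifngr1 (ratio 1.10) and Il4ra (ratio 0.95) stood at similar levels, and the receptor Tgfbr1 was lower, at 30.1 against 290 CPM. Hedgehog signalling was barely measurable: 7 UMIs in all 130 barcodes fell on 4 of its genes, 3 of them on the receptor Ptch1 and 2 on Smo, and the ligands Ihh, Shh and Dhh had none. That is a limit of depth and does not show that the pathway was absent.

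Markers of other cells were counted in each of the 130 barcodes, and 99 had fewer than 3 UMIs of every one of 10 lists of lymphoid, granulocyte, epithelial, stromal and erythroid genes. At least 3 UMIs of the B cell list were found in 15, of the proximal tubule list in 8, of the T cell list in 5, of the plasma cell list in 3, of the NK cell list in 2 and of the distal tubule list in 1. None had 3 UMIs of the neutrophil, endothelium, fibroblast or erythroid lists. Klrd1 was not on the NK cell list, and 31 of the 130 barcodes had at least 3 UMIs of it. It entered neither the NK cell count nor the 99. Beside the NK-type gene Klrd1, Klrk1 was also present, at 90.1 against 30.9 CPM in the C1q-high barcodes, and after thinning Klrd1 was found in 8.02% of T cell barcodes. Among the dendritic cell types, Xcr1 or Clec9a was found in 11 described cells, in 1 of them with 3 or more UMIs, against 33 of the 101 other myeloid barcodes. Ccr7 or Fscn1, which mark mature migratory cells, was found in 4, and Siglech of plasmacytoid cells in none. Genes of a classical monocyte list were more common in the described cells than in the C1q-high barcodes: 106 of 130 (81.5%) against 25.4% had 3 or more UMIs of the list, and at the median it took 0.165% against 0.0440% of UMIs. In the other myeloid barcodes these values were 77.2% and 0.160%. Of its 6 tested genes 4 were higher than in the C1q-high barcodes, among them S100a4, Plac8 and Ms4a4c, and 1 was lower (median log2 ratio 2.19, beside 7.20% higher and 12.3% lower among all genes). Its defining gene Ly6c2 was found in 5 described cells, and Ccr2, the receptor by which monocytes enter tissue, stood at 527 against 547 CPM in the C1q-high barcodes. The part of monocytes in the genes named above was not tested. Mki67 or Top2a, genes of dividing cells, was found in 11. No doublet caller was run, and the part of mixed droplets in these values was not tested.

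Against the 2933 other barcodes together, most of them epithelial or lymphoid, the genes with a higher level were largely those of the myeloid lineage, and 1456 of 12076 genes (12.1%) were at least 2-fold higher and 3146 (26.1%) lower. Cd74 was 4.92-fold and H2-Aa 5.64-fold higher. Klrd1 led the genes outside the rule at 25.2-fold (20.4 to 31.3), followed by Mcemp1 at 22.5-fold. Cfp, the complement regulator properdin, was 13.2-fold higher (11.3 to 15.4) and Clec4b1, a C-type lectin, 13.1-fold (11.0 to 15.7). Ear2, an eosinophil-type ribonuclease with near copies among which reads may be split, was 10.7-fold higher, Mgl2 9.76-fold, Il1b 9.10-fold, Wfdc17 8.94-fold and Alox5ap, which leukotriene synthesis needs, 8.60-fold. The described cells were 4.24% of the library's barcodes and held 59.8% of all its Klrd1 UMIs, 41.6% of its Flt3 UMIs and 35.0% of its Il1b UMIs. Of Apoe they held 0.162%.

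The other myeloid barcodes were closer to the described cells than the C1q-high barcodes were in several genes, and some markers did not tell them apart. Flt3 stood at 120 CPM in the described cells and 107 in the other myeloid barcodes (ratio 1.12, 0.73 to 1.75). Cbfa2t3 had a ratio of 1.01, Itgb7 of 0.99 and Ms4a4c of 1.15. Klrd1 was 3.46-fold higher (2.54 to 4.77), Tnip3 10.7-fold (4.69 to 29.97), Clec4b1 3.03-fold and Il1b 2.79-fold. Irf8 stood at 129 against 1464 CPM and Xcr1 at 13.9 against 267 CPM. Lyz2, lysozyme of phagocytes, stood at 2575 against 9393 CPM, and Ly6c2 at 13.9 against 321 CPM. Of these genes outside the rule, Klrd1 and Tnip3 were at least 2-fold higher than in either myeloid class.

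Within the 130 barcodes Ccl17 was concentrated in a minority. No UMI was found in 94 barcodes, 1 or 2 in 8 and at least 3 in 28, and after the barcode with 173 UMIs the next had 37. Without that barcode the level of Ccl17 fell from 1151 to 759 CPM and the ratio to the C1q-high barcodes from 13.98 to 9.22. The C1q-high level itself rested on 56 UMIs in 3 barcodes, 40 of them in 1, and none of these was left out. The 28 barcodes with 3 or more were set beside the 94 with none, a division chosen after the values were seen. The 28 were deeper (median 3919.5 against 3116 UMIs) and held more RNA of Ear2 (536 against 159 CPM, ratio 3.37), of Tnip3 (345 against 108 CPM) and of the integrin Itgax (236 against 105 CPM, in 16 of the 28 barcodes). Capg, an actin-capping protein, was 8.06-fold higher (4.49 to 15.2), with 48 UMIs in 11 barcodes. Some differences rested on few barcodes: Irf8 (263 against 74.4 CPM) had 29 UMIs in 6 barcodes with 12 in 1, Ear2 59 UMIs in 13 barcodes with 22 in 1, Lpl, lipoprotein lipase, had 51 UMIs in 6 barcodes, Mmp12 36 in 5, and Lyz1 55 in 2, of which 53 lay in 1. The 94 without Ccl17 held more Klrd1 (646 against 173 CPM, 3.74-fold, 2.33 to 6.36), more Plac8 (358 against 54.5 CPM, 6.58-fold) and more Ciita, the master regulator of MHC class II (183 against 63.6 CPM). Of 1275 genes with at least 40 UMIs over both sets, 31 were at least 2-fold higher in the 28 barcodes and 75 lower. Ccl17, which made the division, is counted among the 31. The 94 barcodes had all met the rule through Cd209a or Clec10a, so these 2 genes differ between the sets by construction.

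**Figure D4:**
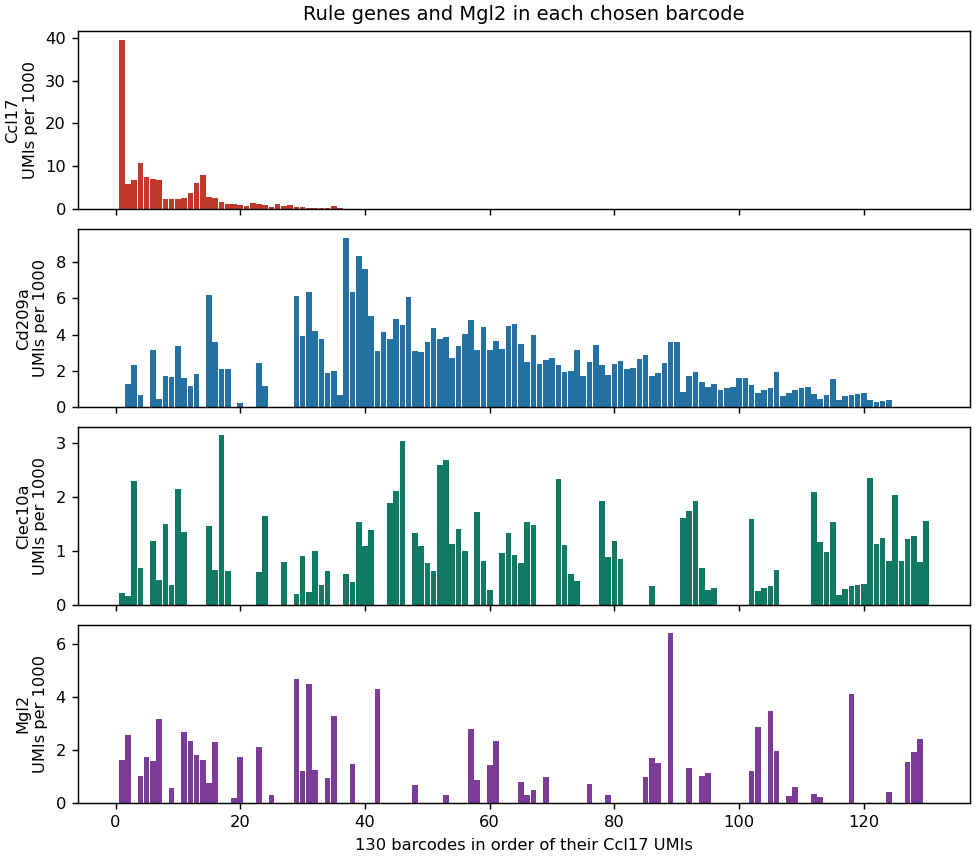
UMIs per 1000 UMIs (bars, y, starting at 0) of Ccl17, Cd209a, Clec10a and Mgl2 in each of the 130 described cells (x), ordered by their Ccl17 UMIs with ties ordered by Cd209a. Ccl17 fills only the 36 barcodes that have it and is dominated by 1, while Cd209a runs across the whole range.

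The rule was met by 3 barcodes of the uninjured kidney, 0.228% (0.0471 to 0.666) against 4.24% (3.56 to 5.02) in the injured table. Of the barcodes in a myeloid class they were 3 of 23 in the uninjured table (13.04%, 2.78 to 33.6). In the injured table they were 130 of 510 (25.5%, 21.8 to 29.5), so these 2 intervals overlapped. In the uninjured kidney 985 barcodes (75.02%) were of the proximal class, against 877 in the injured table. A share of all barcodes therefore depends on every class in the table. The 3 barcodes held 1332, 2864 and 2795 UMIs. Cd209a had 4, 3 and 7 UMIs in them, Clec10a 0, 4 and 1, and Ccl17 none. Each had 2 UMIs of Klrd1 and at least 1 of Napsa, 23 to 56 of H2-Aa, and no C1q UMI, so they held several of the same genes as the injured cells. With 1 kidney library per condition the difference in share has no replicate.

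The bulk libraries measured the same genes in whole kidneys that the selection had not used. They held 18150299 to 37921033 estimated counts each, and 16965 genes were tested across the 24 libraries of the 3 arms with edgeR's quasi-likelihood test and Benjamini-Hochberg adjustment over all of them. The labels do not say that the numbered libraries are separate mice, so p-values measure only the spread between these libraries. In bulk RNA fewer cells of a type and less RNA per cell cannot be told apart. The check gene Ihh stood at 4.58, 6.09, 5.09 and 4.86 CPM in the injured libraries labelled Ihh-deleted. It stood at 9.85, 5.99, 9.79 and 11.8 CPM in the C57/BL6 arm and 9.31, 11.2, 15.4 and 6.89 CPM in the vehicle arm. Of the 4 libraries labelled Ihh-deleted 3 lay below every intact library, but the difference did not pass the test (log2 -0.73, SE 0.34, adjusted p = 0.0928).

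Genes of the described cells rose in injured kidneys in all 3 arms together. Cd209a stood at 20.6, 16.5, 5.69 and 13.6 CPM in the injured C57/BL6 libraries and at 7.82, 11.7, 4.89 and 17.7 CPM in the injured vehicle libraries. In the injured libraries labelled Ihh-deleted it stood at 2.60, 4.48, 2.71 and 11.6 CPM. The 12 contralateral libraries ranged from 0.485 to 2.76 CPM, so 10 of 12 injured libraries lay above every contralateral one, and the rise was 2.47 on the log2 scale (SE 0.32, adjusted p = 7.3e-07). Ccl17, a scarce transcript, ranged from 0.339 to 3.04 CPM (median 0.913) in the injured and from 0 to 0.275 CPM (median 0.0813) in the contralateral libraries, with no overlap, and rose by 3.04 (SE 0.37, adjusted p = 3.0e-07). Clec10a ranged from 0.890 to 19.3 CPM (median 8.25) against 0.257 to 1.62 CPM (median 0.790) and rose by 2.80 (SE 0.33, adjusted p = 1.9e-07). For Clec10a 11 of 12 injured libraries lay above every contralateral one. Across all genes tested, 39.5% rose and 35.5% fell, so a rise by itself is common here.

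Flt3, of which the C1q-high barcodes held 1 UMI, stood at 2.33 to 36.3 CPM (median 14.4) in the injured and 0.537 to 1.95 CPM (median 1.05) in the contralateral libraries without overlap, and rose by 3.24 (SE 0.29, adjusted p = 1.0e-08). Klrd1 did not overlap either, at 0.636 to 7.61 CPM (median 2.88) against 0.0958 to 0.633 CPM (median 0.408). It rose by 2.28 (SE 0.32, adjusted p = 2.1e-06). Of the genes named as lower than in the C1q-high barcodes, Ccl2, Ccl7, Ccl8 and Ms4a7 did not overlap either, and the rest did. A lack of overlap was therefore not particular to genes of the described cells, and its share over all genes was not counted. Mgl2, shared with the C1q-high barcodes, rose by 2.30 (SE 0.25, adjusted p = 8.2e-08). Retnla, absent from the described cells, rose by 3.83 (SE 0.50, adjusted p = 8.5e-07). Among the 15 genes named as higher than in the C1q-high barcodes 14 rose and 1 fell, with a median log2 change of 2.28, and all 15 named as lower also rose, with a median of 2.52. The gene that fell was Napsa (log2 -1.44, SE 0.18, adjusted p = 6.0e-07), and it was also found in 41.6% of proximal tubule barcodes after thinning. On the type 2 list 19 of 20 genes rose and 1 fell, 16 of 17 of the mature migratory list rose, and 12 of 15 of the type 1 list rose with 2 falling. All 14 genes of the T cell list and all 10 of the B cell list rose as well, 17 of 24 of the macrophage list rose, and all 12 of the proximal tubule list fell, beside 39.5% that rose and 35.5% that fell among all genes. The part of these other cells in the change of any single gene was not tested.

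The comparison of injured kidneys labelled Ihh-deleted with the 2 intact injured arms, the deletion comparison of the study, used some of the same libraries as the injury comparison, and across all genes 17.5% fell and 20.2% rose. Most genes of the described cells were lower in it, unevenly by library. Mgl2 is shared with the C1q-high barcodes, and the described cells held 36.6% of its UMIs in the injured single-cell library. It showed the clearest difference among the lectins. It stood at 9.40, 8.24, 3.90 and 17.4 CPM in the libraries labelled Ihh-deleted, at 67.2, 45.7, 19.8 and 48.7 CPM in the C57/BL6 arm and at 29.8, 30.2, 14.8 and 51.8 CPM in the vehicle arm. Of the 4 libraries labelled Ihh-deleted 3 lay below every intact library, and Mgl2 fell by 1.74 on the log2 scale (SE 0.38, adjusted p = 0.0025). Clec10a stood at 2.89, 2.33, 0.890 and 8.12 CPM against 19.3, 17.5, 8.39 and 10.1 CPM and 9.98, 7.12, 4.50 and 12.7 CPM. It fell by 1.41 (SE 0.47, adjusted p = 0.0236).

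The other rule genes did not pass the test. Cd209a, with the values given above, had a log2 difference of -0.96 (SE 0.46, adjusted p = 0.105). Ccl17 stood at 0.701, 0.403, 0.339 and 0.935 CPM in the libraries labelled Ihh-deleted, against 3.04, 0.890, 0.559 and 1.75 CPM and 1.39, 1.49, 0.562 and 1.05 CPM, a log2 difference of -0.92 (SE 0.46, adjusted p = 0.121). Its groups overlapped, with 2 of the 4 libraries below every intact one. Retnla stood at 1.36, 1.57, 0.339 and 3.82 CPM against 15.7, 11.6, 4.57 and 5.49 CPM in the C57/BL6 arm and 1.30, 4.67, 1.26 and 4.13 CPM in the vehicle arm. The vehicle arm thus overlapped the libraries labelled Ihh-deleted, and the log2 difference of -1.31 (SE 0.63) had an adjusted p of 0.106. Library 4 labelled Ihh-deleted was the highest of its group for each of these genes. Without it Cd209a fell by 1.60 (adjusted p = 0.0125) and Retnla by 1.95 (adjusted p = 0.0314).

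Flt3 fell by 1.27 (SE 0.42, adjusted p = 0.0213) and Klrd1 by 1.23 (SE 0.47, adjusted p = 0.0418). Flt3 stood at 4.74, 4.21, 2.33 and 15.6 CPM in the libraries labelled Ihh-deleted, and the intact libraries ranged from 5.93 to 36.3 CPM with a median of 19.0. The calls of Clec10a, Flt3 and Klrd1 depended on single libraries and on the arm of comparison. Without library 1, 2 or 3 of the arm labelled Ihh-deleted the adjusted p was 0.0659, 0.0794 or 0.0963 for Clec10a, 0.0694, 0.0790 or 0.0963 for Flt3 and 0.109, 0.122 or 0.149 for Klrd1. Against the vehicle arm alone, which shares the transgene, it was 0.143, 0.123 and 0.246. Of the remaining dendritic cell genes, Zbtb46 fell by 0.71 (adjusted p = 0.00173), Xcr1 by 1.51 (adjusted p = 0.00468) and Clec9a by 1.57 (adjusted p = 0.00462). Only 10 of the 75 Zbtb46 UMIs of the injured single-cell library (13.3%) lay in the described cells. The part of other cells in its fall was not tested. Irf4 (log2 -1.24, adjusted p = 0.126) and Ccr7 (log2 -1.06, adjusted p = 0.190) did not pass. Without library 4 labelled Ihh-deleted, Irf4 fell by 2.88 (adjusted p = 0.00112) and Ccr7 by 2.41 (adjusted p = 0.00579). Against the vehicle arm alone Xcr1 (adjusted p = 0.180) and Clec9a (adjusted p = 0.0959) did not pass either.

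Of the 15 genes named as higher than in the C1q-high barcodes 10 fell, 4 were not called and 1 rose, with a median log2 difference of -1.23. The 1 that rose was again Napsa, by 1.74 (SE 0.26, adjusted p = 0.000254), a call lost with all 32 libraries in the fit (adjusted p = 0.226). Of the 15 named as lower, 11 fell and 4 were not called (median -1.32). On the type 2 list 12 of 20 genes fell and 1 rose, on the type 1 list 14 of 15 fell, on the macrophage list 16 of 24, on the fibroblast list all 10, on the T cell list 3 of 14 and on the B cell list 1 of 10, beside 17.5% of all genes that fell. The T cell and B cell counts were near that share, but the median log2 differences of these lists were -1.21 and -1.46. Those of the type 2, type 1 and macrophage lists were -1.09, -1.05 and -1.32, so the lists differed more in genes called than in median size. All 12 genes of the proximal tubule list rose in the same comparison. C1qa fell in the same comparison, by 1.55 (SE 0.43, adjusted p = 0.00911). Whether a change in the number of these cells, in their RNA or in the amount of tubule RNA set these differences was not tested.

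**Figure D5:**
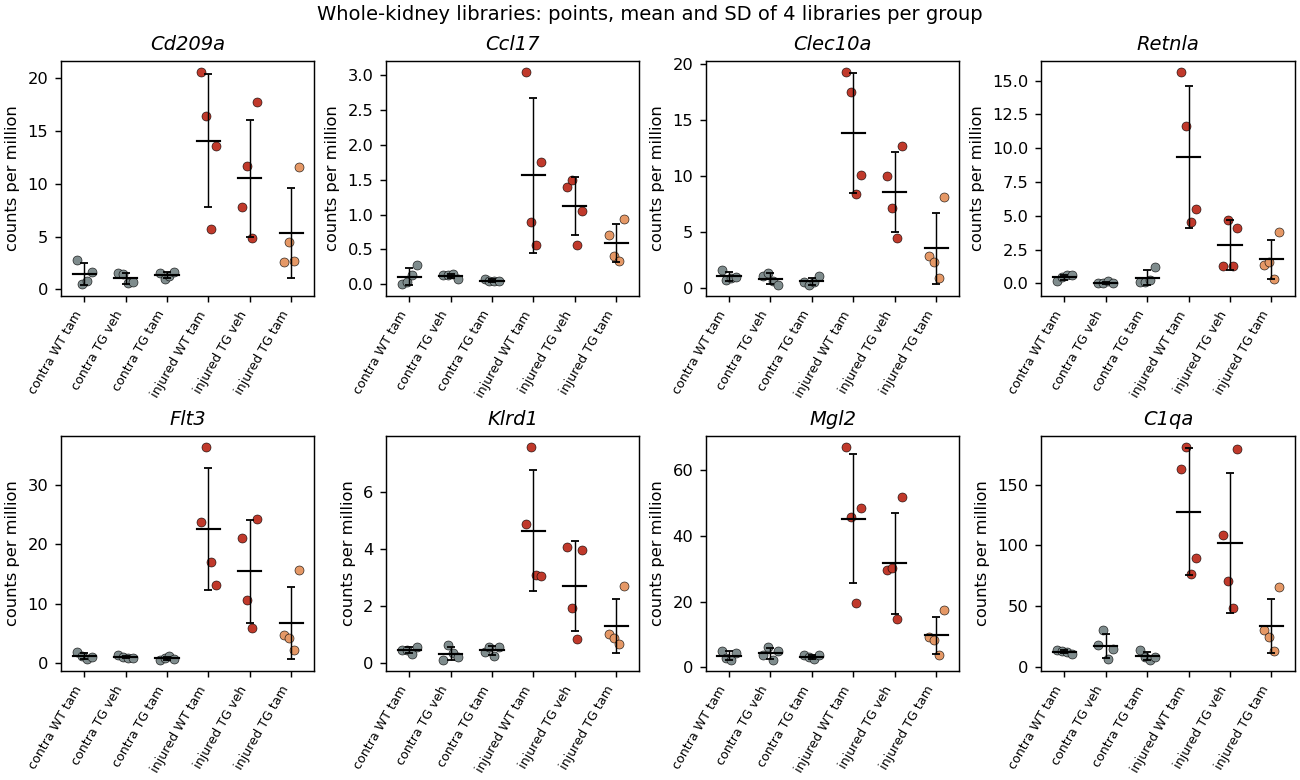
CPM (y, linear axes) of 8 genes in each bulk library of the 3 injured and 3 contralateral groups (x), as points with the mean and SD of 4 libraries. Injured libraries lie above contralateral ones for Ccl17, Flt3 and Klrd1 without overlap, as they do for some genes low in the described cells (not drawn). For Cd209a, Clec10a, Flt3 and Klrd1, 1 library labelled Ihh-deleted stands above the other 3 of its group.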

How the data were processed

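The authors deposited 2 tables of single-cell UMI counts and 1 table of transcript-level expected counts for 32 bulk libraries, 4 numbered columns in each of 8 groups, each group being 1 sample record. Cell Ranger, STAR and Salmon 1.4 are named in the submitters' processing notes, with builds GRCm38 and mm10, with no role stated for each. Both single-cell tables hold counts with no barcode under 1000 UMIs, per the deposited values. No source names the removal of empty droplets. No further filter and no doublet caller was applied.

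Members were found by summed UMIs (at least 3 of Cd209a, Ccl17 and Clec10a, fewer than 8 of C1qa, C1qb and C1qc). Members, gene lists and comparisons were chosen with earlier results of these data known. Barcodes with at least 8 C1q UMIs formed the C1q-high class, and the other classes were set by summed marker UMIs. UMIs were summed per class and scaled to CPM, with exact Poisson, binomial and conditional ratio intervals at 95%. A gene was compared with at least 20 UMIs over both classes (40 in the division by Ccl17) and called at a 2-fold ratio. A class at 0 was set to a floor of 3 UMIs, also in list medians. Shares were also computed after thinning each barcode to 1000 UMIs.

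The expected counts that the authors deposited were summed over the transcripts of each gene (GENCODE M21 names; 105203 of 105833 transcripts matched, the 630 others holding 0.213% of counts) and rounded. edgeR 4.0.16 (TMM, filterByExpr, quasi-likelihood F test, Benjamini-Hochberg, threshold 0.05) was fitted to the 24 libraries of the 3 injury arms with 1 coefficient per group. Injured minus contralateral averaged the 3 arms. The deletion comparison was the arm labelled Ihh-deleted minus the mean of the 2 intact arms. SE was taken from the F value. The other 8 libraries (labelled uninjured and nephrectomy) entered only an alternative. Of these, 3 went against their kidney label, nephrectomy library 3 and uninjured libraries 1 and 4, with the heart muscle gene Myh6 at 30525 to 31549 CPM and the proximal tubule gene Slc34a1 at 0.920 to 3.70 CPM, and uninjured library 2 held only 592081 counts. Both methods were tested on simulated data. Alternatives were RLE factors, DESeq2 1.42.0, no low-count filter, all 32 libraries, single intact arms, a replicate block, leaving out each library, other limits of the rule, other minima, thinning, and, chosen after seeing the data, leaving out the barcode with most Ccl17 or members without Cd209a.

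Genes named were the rule's genes and Retnla, the 15 with the largest ratio in each direction and comparison among genes with at least 100 UMIs in the higher class (mitochondrial, ribosomal protein, Gm and Rik genes left out), lineage-defining genes and 2 to 4 members of each list. Further genes were named after their values were seen. Promoters came from RefSeq on GRCm38.p6. Python 3.11.15 with numpy 2.4.6, pandas 2.3.3, scipy 1.17.1 and matplotlib 3.10.9, and R 4.3.3, were used.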

Additional observations from a re-analysis of the deposited data

Results flagged for a closer look

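Among the 47 genes followed in the bulk libraries, 23 of 282 sets of 4 libraries had 1 library standing apart from the other 3, where chance gives about 1 in 20. Library 4 of the injured arm labelled Ihh-deleted was that library for 10 genes. In it Ccr7 stood at 8.15 CPM with the next library at 1.52, Irf4 at 64.1 with the next at 9.27, Ccl22 at 2.43 with the next at 0.537, and H2-Oa at 6.92 with the next at 1.25. H2-DMb2 stood at 24.7 CPM there with the next at 4.93, Ltb at 11.8, Mcemp1 at 2.77, Ms4a4c at 8.12, Cnn2 at 46.3 and Ccl8 at 29.8. Cd209a was also highest in that library, at 11.6 CPM with the next at 4.48, short of the limit. The only other injured library was library 2 of the C57/BL6 arm, with Ccl8 at 108.5 CPM.

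The contralateral libraries that stood apart did so mostly at low levels. In the arm labelled Ihh-deleted they were library 1 for Ccl17 (0.0826 CPM) and library 4 for Retnla (1.24 CPM) and Zbtb46 (26.0 CPM). In the C57/BL6 arm it was library 1 for Ccr7 (1.26 CPM) and H2-Aa (89.5 CPM). In the vehicle arm they were library 1 for Siglech (1.37 CPM) and, as the lowest, Ihh (8.05 CPM), library 2 for S100a4 (1.93 CPM), Ccl12 (1.48 CPM) and C5ar1 (1.56 CPM), and library 3 for Retnla (0.148 CPM) and S100a6 (22.2 CPM).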

How the results depend on the processing

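With only 1 UMI required, 4509 genes were at least 2-fold higher than in all other barcodes, and against the C1q-high barcodes 2526 were higher and 1690 lower. Applied after thinning to 1000 UMIs, the rule found 75 barcodes in the injured and 1 in the uninjured table. With all 32 bulk libraries in the fit, which adds 3 that went against their kidney label (Myh6 at 30525 CPM or more) and 1 of 592081 counts, 892 genes rose and 765 fell in the deletion comparison. Against the vehicle arm alone 1269 rose and 1211 fell. Leaving out each library in turn gave 6527 to 6930 genes that rose and 5892 to 6196 that fell with injury, and 1867 to 3839 that rose and 1396 to 3716 that fell in the deletion comparison. In that comparison the lowest counts came without library 3 of the arm labelled Ihh-deleted, and 1924 fell without its library 2. With a replicate block by arm and column number, 6546 genes rose and 5852 fell with injury, and none of 23 genes recomputed changed its call. The same-numbered libraries deviated together only in part (12 pairs, correlations of -0.23 to 0.20, over 0.1 in 6, highest for the own number in 5). In the C57/BL6 arm libraries 2, 3 and 4 each matched their own number best (0.194, 0.189 and 0.188). Because this did not hold throughout, the numbers were not taken as pairs, and whether they share a mouse is not known. The injury calls of these 23 genes held in every setting run except that of Napsa with all 32 libraries (adjusted p = 0.0666), a setting that also ended its deletion call (adjusted p = 0.226). Mgl2 kept its deletion call in 17 of 18 settings and Ccl17 had none in 18. Depth limits what can be said of Zbtb46, Irf4, Tnf and the Hedgehog genes in single cells.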
